A study of Mus musculus with 4 samples.

Results

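The interleukin-33 receptor gene Il1rl1 and 6 genes of the interleukin-1 receptor family around it were followed across 4 libraries of C2C12 myotubes. The others were the ligand gene Il33, the shared receptor subunit gene Il1rap, the receptor genes Il1r1 and Il1rl2, the inhibitory receptor gene Sigirr and the adaptor gene Myd88. All 7 symbols were found among the 45777 genes of the deposited table, each once. The group was chosen by family after the clenbuterol ratio of Il1rl1 in these libraries was known, so the values of Il1rl1 are given as a description and support nothing further.

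C2C12 is an established mouse myoblast line whose cells fuse into multinucleate myotubes in low serum. RNA sequencing was done on 1 library in each of 4 groups: myotubes given clenbuterol, a control for clenbuterol, myotubes under EPS and a control for EPS. Clenbuterol is an agonist of the β2-adrenergic receptor, and EPS is read as electrical pulse stimulation, which the labels leave unexpanded. All groups share the line and the medium with 2% horse serum, and the treatment field reads 30 ng/ml clenbuterol in all 4 records, so titles set the groups. The deposited data of the EPS pair carry each other's names: the record titled EPS holds data named as its control, and the reverse. Groups follow titles here, each library of that pair is named by its title ("under the EPS title", then "its control"), and every direction in that pair is the opposite under the data names.

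Interleukin-33 is an alarmin that sits in the nucleus and is released when cells are damaged. On the target cell it binds ST2, the product of Il1rl1, which then recruits the accessory chain encoded by Il1rap. Interleukin-1 uses the same accessory chain with the receptor encoded by Il1r1, and interleukin-36 uses it with the receptor encoded by Il1rl2. The intracellular domains of these receptors bind MyD88, which passes the signal through IRAK kinases and TRAF6 to NF-κB, and SIGIRR dampens that step. Il1rl1 also makes a short transcript for a soluble decoy receptor that lacks the membrane and intracellular parts, and it is known to start from separate promoters in different cell types.

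The starts of Il1rl1 in the RefSeq promoter table are shown because this was the member that differed between the clenbuterol libraries. RefSeq on GRCm38.p6, the same assembly as mm10, gives windows of 300 bases, from 250 before to 50 after a start. Both lie on the plus strand and their starts are 10059 bases apart. The deposited span of the gene begins upstream of both, so it holds at least 1 further start that is not shown. The upstream window is chr1:40429320-40429619 and the downstream window chr1:40439379-40439678. Capitals mark matches, on either strand, to the partial cyclic AMP response element TGACG or to the GATA core GATAA.

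Il1rl1 upstream start: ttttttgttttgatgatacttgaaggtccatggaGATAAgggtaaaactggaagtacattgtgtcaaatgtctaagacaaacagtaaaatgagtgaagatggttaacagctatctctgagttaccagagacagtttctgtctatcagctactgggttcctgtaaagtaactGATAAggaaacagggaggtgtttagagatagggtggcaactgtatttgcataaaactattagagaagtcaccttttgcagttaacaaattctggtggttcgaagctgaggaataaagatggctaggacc

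Il1rl1 downstream start: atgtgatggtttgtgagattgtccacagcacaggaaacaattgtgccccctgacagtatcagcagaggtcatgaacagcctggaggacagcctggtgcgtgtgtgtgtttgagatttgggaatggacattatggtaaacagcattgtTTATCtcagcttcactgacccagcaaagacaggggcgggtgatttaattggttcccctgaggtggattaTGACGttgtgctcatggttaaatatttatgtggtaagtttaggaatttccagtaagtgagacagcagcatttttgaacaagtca

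The downstream window held 1 TGACG, 34 bases before the start, and the upstream window held none. Of 32851 promoter windows of this length, 20.8% held that motif on either strand. The full element TGACGTCA, present in 1.79% of windows, was in neither, and the same was true of the AP-1 motif TGANTCA (7.81%) and the NR4A motif AAAGGTCA (1.51%). GATAA, which is in 25.4% of windows and was added after the sequences had been seen, occurred at 216 and 79 bases before the upstream start. On the minus strand it occurred 103 bases before the downstream start. TGACG lies within TGACGTCA, so a full element would have counted under both. Among the 9 windows of the 6 members with an entry, TGACG was otherwise found only in the first window of Il1r1. A match describes letters in a window and does not show a site in use.

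Totals of estimated counts ran from 32640884 to 35597074 per library, and 13412 to 13489 genes reached 1 TPM, transcripts scaled for length and depth. All 13 myotube marker genes reached that level in every pair, with summed TPM from 12381 to 19675. Of 5 leukocyte markers, Ptprc and Cd52 had 0 counts in all 4 libraries, and the summed TPM of the list was 1.98 to 3.62, nearly all from Itgb2. Mast cells, which carry much ST2 in tissue, are marked by 7 listed genes: Kit, Fcer1a, Cpa3, Mcpt4 and Tpsb2 were at 0 counts throughout, Ms4a2 had 2 counts in 1 library, and Hdc stood at TPM 4.64 to 12.1. Cma1, a mast cell chymase gene outside that list, had 17 counts with clenbuterol (TPM 1.06) and 7 in its control. It had 4 counts under the EPS title and 0 in its control. For type 2 lymphoid and regulatory T cells, 5 of 8 markers were at 0 counts everywhere, Foxp3 had 2 counts in 1 library, Gata3 stood at TPM 2.13 to 2.70, and Areg ran from 1.14 to 17.7. The macrophage marker Adgre1 was at 0 while Cd68 and Cd14 were present, with a list sum of 11.2 to 14.5. The other listed markers, Csf1r, Lyz2 and Mrc1, reached a TPM of at most 0.411, 0.353 and 0.275. The 5 endothelial markers summed to at most 0.939. The 6 fibroblast markers summed to between 2554 and 4423, mostly from collagen genes, which C2C12 cells also express. Bulk RNA cannot tell fewer cells of a type from less RNA per cell.

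Of the 7 genes, 6 were measured and 1 was not detected. Il1rl1, the ST2 gene on mm10 chromosome 1 at 40404864 to 40465418, stood far above its control with clenbuterol, whereas Il33, Il1rap, Il1r1, Sigirr and Myd88 all stayed within 1.23-fold of theirs. No member reached 2-fold in the EPS pair. Il1rl2 had 0 counts in all 4 libraries.

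Il33, the ligand gene, on chromosome 19 at 29925113 to 29960718, had a TPM of 10.02 with clenbuterol, 9.93 in the clenbuterol control, 6.68 under the EPS title and 8.90 in its control. The clenbuterol libraries were level, and the library titled EPS was the lowest of the 4. Folds are given in CPM, the estimated counts scaled for library size and composition, each with a 95% interval that covers counting error only. The fold with clenbuterol was 1.02 (0.884 to 1.19), on 368 and 370 counts. By title, EPS was 1.29-fold lower (1.10 to 1.53), on 268 against 313 counts. Transcripts for the ligand of ST2 were present in each culture, 1.52-fold apart in CPM between the highest and lowest library. The protein was not measured.

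Il1rl1 was the member that moved. Its TPM was 10.5 with clenbuterol, 0.659 in the clenbuterol control, 1.26 under the EPS title and 2.26 in its control. The counts behind these values were 539, 51, 73 and 112. Clenbuterol was the library apart, and the remaining 3 were all low. The fold over the clenbuterol control was 10.9 in CPM (8.15 to 14.8) and 15.9 in TPM. Against the library titled EPS the clenbuterol library was 8.20-fold higher (6.41 to 10.6), and against the library titled EPS control 4.82-fold (3.93 to 5.97). Those comparisons share the clenbuterol library and cross culture pairs. Of the 13788 genes that reached 1 TPM in either clenbuterol library, 5 had a larger log2 ratio of TPM plus 1 than the 2.79 of Il1rl1. Of the lists of other cell types, the type 2 lymphoid and regulatory T cell list moved with Il1rl1, summing to a TPM of 20.4 with clenbuterol and 5.54 in its control. Areg made up 17.7 and 2.84 of these sums, and Cd3e, Il7r, Icos, Il5 and Il13 were at 0 counts in both libraries.

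In the EPS pair Il1rl1 was 1.70-fold lower by title in CPM (1.25 to 2.32). The library titled EPS control in turn was 2.26-fold above the clenbuterol control (1.61 to 3.21). By title, then, 2 control libraries differed by a fold whose interval overlaps that of the EPS pair. Under the data names the control is the library titled EPS. That library was 1.33-fold above the clenbuterol control (0.915 to 1.94), and the interval holds 1. Summed TPM of the myotube markers was 12381 under the EPS title and 17098 in its control, and Hdc, the 1 listed mast cell marker above 1 TPM, stood at 4.64 and 7.47. The part of either in the EPS differences of Il1rl1 and Il33 was not tested.

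Il1rap encodes the accessory chain that ST2, the interleukin-1 receptor and the interleukin-36 receptor all need. It lies on chromosome 16 at 26581509 to 26730128 and had a TPM of 3.46 with clenbuterol, 4.06 in its control, 4.67 under the EPS title and 5.18 in its control. Clenbuterol was the lowest library and the gap to its control was small. Across pairs it stood at 0.761 of the library titled EPS in CPM (0.638 to 0.905). Against the library titled EPS control it stood at 0.720 (0.603 to 0.858). The fold with clenbuterol was 0.856 (0.713 to 1.03) and by title with EPS 0.946 (0.807 to 1.11), and both intervals hold 1. With Il1rap nearly level within each pair, the number of Il1rl1 transcripts per Il1rap transcript, in TPM, was 3.03 with clenbuterol and 0.162 in its control. It was 0.271 under the EPS title and 0.437 in its control. Clenbuterol was the single library in which Il1rl1 transcripts outnumbered those of Il1rap. These TPM values pool all transcripts of a gene, the soluble decoy of Il1rl1 included. The ratio is therefore not one of membrane receptor to accessory chain.

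Il1r1, the signalling receptor of interleukin-1, lies upstream of Il1rl1 on chromosome 1, at 40222480 to 40316201. Its TPM was 15.2 with clenbuterol, 12.5 in the clenbuterol control, 21.8 under the EPS title and 19.2 in its control. The EPS libraries lay above the clenbuterol libraries with no overlap, and the controls differed in the same direction: the library titled EPS control was 1.48-fold above the clenbuterol control in CPM (1.36 to 1.62). Within the pairs the folds were 1.23 with clenbuterol (1.12 to 1.34) and, by title, 1.19 with EPS (1.11 to 1.28). Il1rl2, the interleukin-36 receptor gene at 40324589 to 40367555 on the same chromosome, lies between Il1r1 and Il1rl1. Its 0 counts allow up to 3 counts per library, which is 0.083 to 0.0921 CPM.

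The inhibitory receptor and the adaptor completed the set. Sigirr, on chromosome 7 at 141091175 to 141100597, had a TPM of 1.15 with clenbuterol, 1.06 in its control, 1.68 under the EPS title and 1.36 in its control, from 36, 34, 55 and 39 counts. Its folds were 1.09 (0.663 to 1.80) and, by title, 1.27 (0.829 to 1.97), and both intervals hold 1, so a difference was not detectable at this depth. Myd88, on chromosome 9 at 119335934 to 119340018, had a TPM of 16.4 with clenbuterol, 19.9 in its control, 17.2 under the EPS title and 17.8 in its control. Here the clenbuterol control was the highest library. Myd88 was 1.19-fold lower with clenbuterol (1.05 to 1.35) and differed by 0.994-fold in the EPS pair (0.876 to 1.13).

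**Figure D1:**
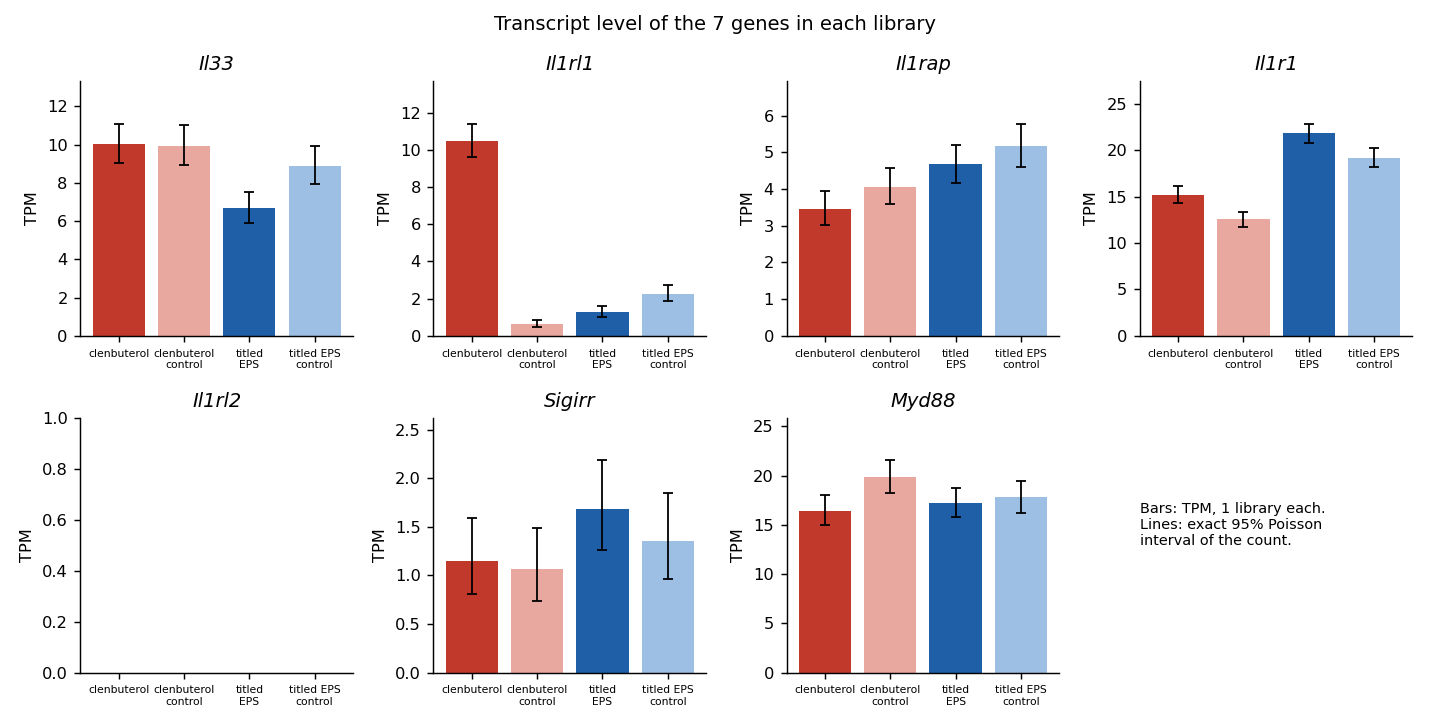
TPM of the 7 genes in the 4 libraries, 1 panel per gene with its own axis from 0; bars are single libraries and lines the exact 95% Poisson interval of the count. The Il1rl1 bar for clenbuterol stands at 10.5 while the remaining 3 are at or below 2.26, and Il1rl2 has no bar because it had 0 counts.

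**Figure D2:**
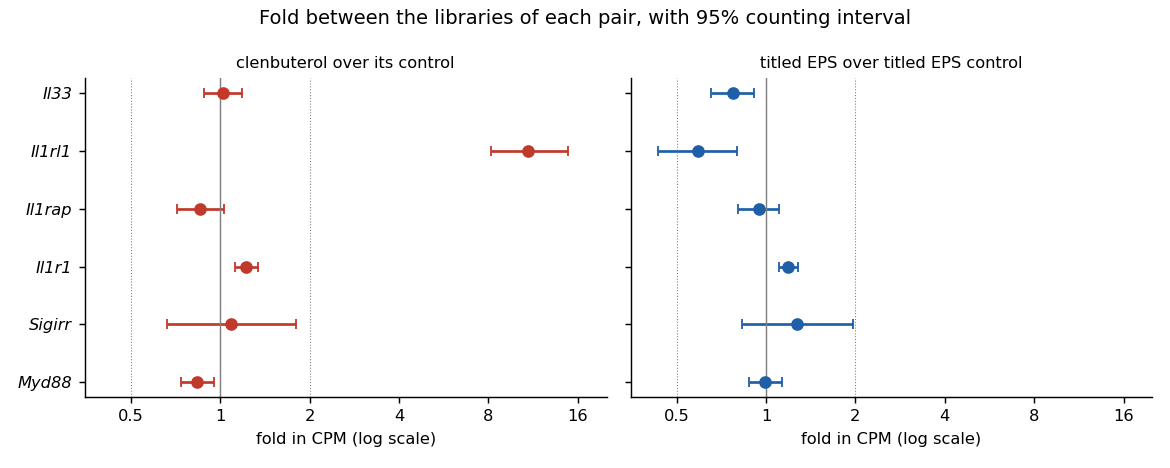
Fold in CPM between the libraries of each pair for the 6 detected genes, on a log axis, with 95% counting intervals; dotted lines mark 2-fold. With clenbuterol Il1rl1 lies at 10.9 and the rest between 0.838 and 1.23, and in the EPS pair all points lie between 0.588 and 1.27.

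With clenbuterol 1 of 6 measured members was at least 2-fold higher in TPM plus 1 and 0 were lower. Of all 13788 genes tested, 1.00% were at least 2-fold higher and 0.515% lower, and that contrast chose the group, so nothing is read from the count. In CPM plus 1 the member counts were the same, and the shares of all genes were 0.442% higher and 0.0943% lower. At 1.5-fold, Il1rl1 was again the single member, with 2.52% of all genes higher and 1.92% lower. The members' median log2 ratio was 0.04, and that of all genes was −0.01.

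Between the EPS libraries 0 of 6 members reached 2-fold or 1.5-fold in TPM plus 1 in either direction. Among 13828 genes tested, 0.868% were at least 2-fold higher by title and 1.14% lower. In CPM plus 1 these shares were 0.275% and 0.542%, with 0 members, and at 1.5-fold in TPM they were 2.34% and 4.24%. The members' median was −0.08 against −0.02 for all genes. Without replicates no spread between cultures was measured in either pair, and no p-value was computed.

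The order of levels, read from TPM because it corrects for transcript length, differed most in the place of Il1rl1. Myd88 and Il1r1 were the most abundant members in every library, followed by Il33 and Il1rap in the clenbuterol control and in both EPS libraries. With clenbuterol, Il1rl1 stood at rank 3, against rank 6 in the control, next to Il33: their counting intervals ran from 9.62 to 11.4 and from 9.02 to 11.1. Il33 transcripts outnumbered Il1rl1 transcripts by 15.1 to 1 in the clenbuterol control, 5.28 to 1 under the EPS title and 3.94 to 1 in its control, and stood at 0.956 to 1 with clenbuterol. Myd88 and Il1r1 had overlapping intervals with clenbuterol and in the library titled EPS control, and separate ones in the other libraries. At the low end Il1rl1 and Sigirr overlapped in the clenbuterol control and under the EPS title, and Il1rl1 stood above Sigirr in the library titled EPS control.

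The implied length of the Il1rl1 transcripts also differed between libraries. An estimated count divided by FPKM, the count scaled for transcript length and depth, is proportional to the mean length of the transcripts to which reads were assigned. The scale was set on 781 to 837 genes per library that have 1 annotated transcript and between 50 and 600 counts, of which 75.2% to 76.3% came within 10% of their annotated length. For Il1rl1 the implied length was 5322 bases in the clenbuterol control, 3586 with clenbuterol, 3696 under the EPS title and 3604 in its control. The clenbuterol control was the library apart, on 51 counts.

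GENCODE M21 holds an Il1rl1 transcript of 5302 bases and 11 exons that ends at 40465415, which matches the RefSeq entry for the membrane receptor. The transcript of the soluble decoy has 2661 bases and 8 exons and ends at 40448148. A further transcript from the upstream start has 1216 bases. The control value lay close to the long transcript, and the other 3 lay between the long transcript and the decoy. The authors' table lists 6 transcripts for this gene, more than those given here, and without separate values. The share of each form was therefore not measured. The same shift separates the 15.9-fold ratio in TPM from the 10.9-fold ratio in CPM.

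No other member moved this way. The highest implied length was 1.48 times the lowest for Il1rl1, against 1.05 for Sigirr, 1.04 for Il1rap, 1.02 for Il1r1 and 1.00 for Il33 and Myd88. Myd88 has 1 listed transcript, so its implied length could not show a change of form. The Il33 transcripts matched to RefSeq have 2544 and 2537 bases, so a change between them would not show either. Of 2385 genes with several transcripts and 50 to 600 counts in every library, 3.10% had a ratio at least as large as Il1rl1. None of 1192 genes with 1 transcript did, but that is set by construction, because a single length keeps the ratio near 1. The genes compared were not matched to Il1rl1 in count. Its 51 counts in the clenbuterol control lie near the low end of the range of 50 to 600.

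**Figure D3:**
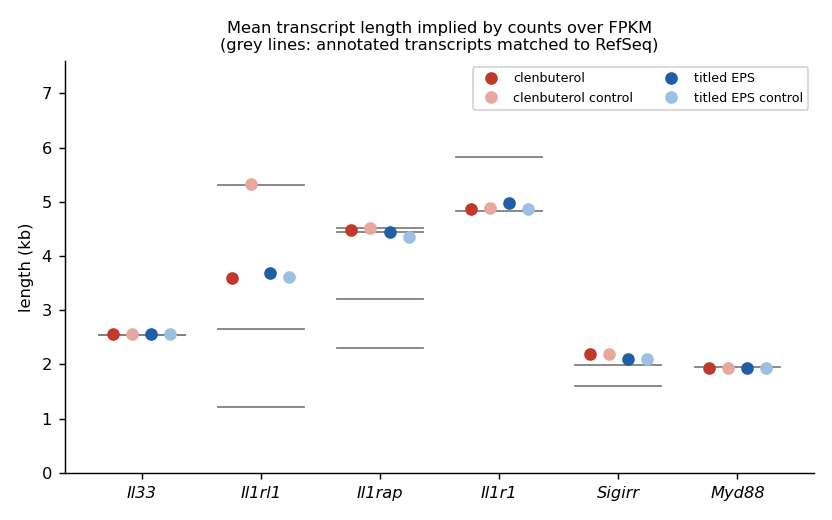
Mean transcript length in kb implied by estimated count over FPKM for the 6 detected genes in each library, with grey lines at annotated transcripts matched to RefSeq. Il1rl1 sits on the longest of its drawn transcripts in the clenbuterol control and lower in the remaining 3 libraries, while the points of each of the other genes nearly coincide. Myd88 has 1 listed transcript, so its points coincide by construction, and the Il33 transcripts drawn are nearly equal in length.

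Of the genes beside Il1rl1, most were silent or nearly so. The interleukin-1 receptor cluster of chromosome 1, from Il1r2 to Il18rap, spans 467 kb and holds 8 genes of the deposited table, of which 4 had 0 counts in all libraries. Il18r1, an interleukin-18 receptor gene whose start lies 133 bases beyond the end of Il1rl1 on the same strand, was one of them. Il1r2, a decoy receptor gene for interleukin-1, had 4 counts in the clenbuterol control and 0 elsewhere. Il18rap, the accessory chain gene of the interleukin-18 receptor, had 62 counts with clenbuterol, 32 in its control, 70 under the EPS title and 84 in its control. Its fold with clenbuterol was 1.99 (1.28 to 3.16), yet both EPS libraries had a higher TPM, 0.889 and 1.22, than the 0.854 of clenbuterol. At these levels Il18rap fell below the TPM filter of the clenbuterol pair.

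Of the ligands of the family, 4 of 10 were measured. Il18, the interleukin-18 gene, was the most abundant at a TPM of 15.7 to 17.2. Il1rn, which encodes the interleukin-1 receptor antagonist, stood at 2.29 and 2.28 in the clenbuterol pair and at 1.09 and 1.10 in the EPS pair. Il1b, the interleukin-1β gene, had a TPM of 3.63 with clenbuterol, 3.03 in its control, 1.37 under the EPS title and 4.01 in its control. The library titled EPS was the low one, 2.86-fold below its control by title (1.98 to 4.21), on 41 against 106 counts. No ligand reached 2-fold with clenbuterol, and the median log2 ratio of the 4 was 0.03. In the EPS pair Il1b was the 1 ligand past 2-fold, lower by title, beside 1.14% of all genes, and the ligands' median was −0.19. Il1a had at most 9 counts per library, Il1f10 had 3 counts in 1 library, and the interleukin-36 ligand and antagonist genes had 0 counts.

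In the list of 11 receptors and decoys, 5 were measured in the clenbuterol pair, and Il1rl1 was the 1 gene past 2-fold. Il18bp, the gene of a soluble binder of interleukin-18, had a log2 ratio of 0.25 with clenbuterol and −0.08 by title with EPS. The list's medians were 0.25 with clenbuterol and −0.10 with EPS, where 6 genes were measured and 0 reached 2-fold.

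Downstream of MyD88, transcripts of the signalling proteins stayed under 1.5-fold with clenbuterol. All 22 genes of the path to NF-κB were measured in the clenbuterol pair, 0 reached 2-fold or 1.5-fold, and the median log2 ratio was −0.00. The highest were Nfkbia (0.44), which encodes the inhibitor IκBα, Ecsit (0.21) and Nfkb1 (0.14). The lowest were Tab1 (−0.32), an activator of the TAK1 kinase, Peli3 (−0.26) and Traf6 (−0.16). In the EPS pair 0 of 21 reached 2-fold and 2 were past 1.5-fold, lower by title: Nfkbia (log2 −0.97) and Ikbkg (−0.84). Of all genes, 4.24% were at least 1.5-fold lower there. In CPM, Ikbkg was 2.10-fold lower (2.00 to 2.20), so 1 of the 21 is past 2-fold in that unit, beside 0.542% of all genes in CPM plus 1. Ikbkg, the gene of the regulatory subunit of the IκB kinase, overlaps G6pdx on the opposite strand, and whether reads were counted by strand is not stated. At the other end stood Irak2 (0.28), Ecsit (0.12) and Tollip (0.11), and the median was −0.08.

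Genes commonly induced by interleukin-1 or interleukin-33 through NF-κB were the list with most genes past 2-fold in both pairs. Of 17 measured with clenbuterol, 4 were at least 2-fold higher, 8 at least 1.5-fold, and 0 were lower, beside 1.00%, 2.52% and, for 2-fold lower, 0.515% of all genes, with a median log2 ratio of 0.44 against −0.01 for all genes. The 4 were Il6 (4.53), Cxcl1 (3.06), Cxcl5 (2.26) and the cyclooxygenase gene Ptgs2 (1.72). Cxcl1 and Cxcl5 passed the filter through the clenbuterol library alone, at TPM 0.751 and 0.919 in its control. The list was also chosen with earlier results of these data known, so its counts in both pairs are a description. Traf1 (−0.31), Tnfaip3 (−0.28), which encodes the NF-κB inhibitor A20, and Relb (−0.10) were the lowest. By contrast, 6 of 17 in the EPS pair were at least 2-fold lower by title and 0 higher, beside 1.14% and 0.868% of all genes, with a median of −0.67 against −0.02. The lowest were Cxcl5 (−4.55), Saa3 (−4.53) and Cxcl1 (−4.34), and the highest Lif (0.38), Nfkbiz (0.04) and Vcam1 (−0.05). Cxcl5 and Saa3 passed the filter through the library titled EPS control alone, at TPM 0.780 and 0 under the EPS title. Il6 and several of these genes also respond to other signals, cyclic AMP among them, so their values do not separate one route from another. Icam1, Lcn2, Cxcl2 and Csf3 had 0 counts in every library.

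**Figure D4:**
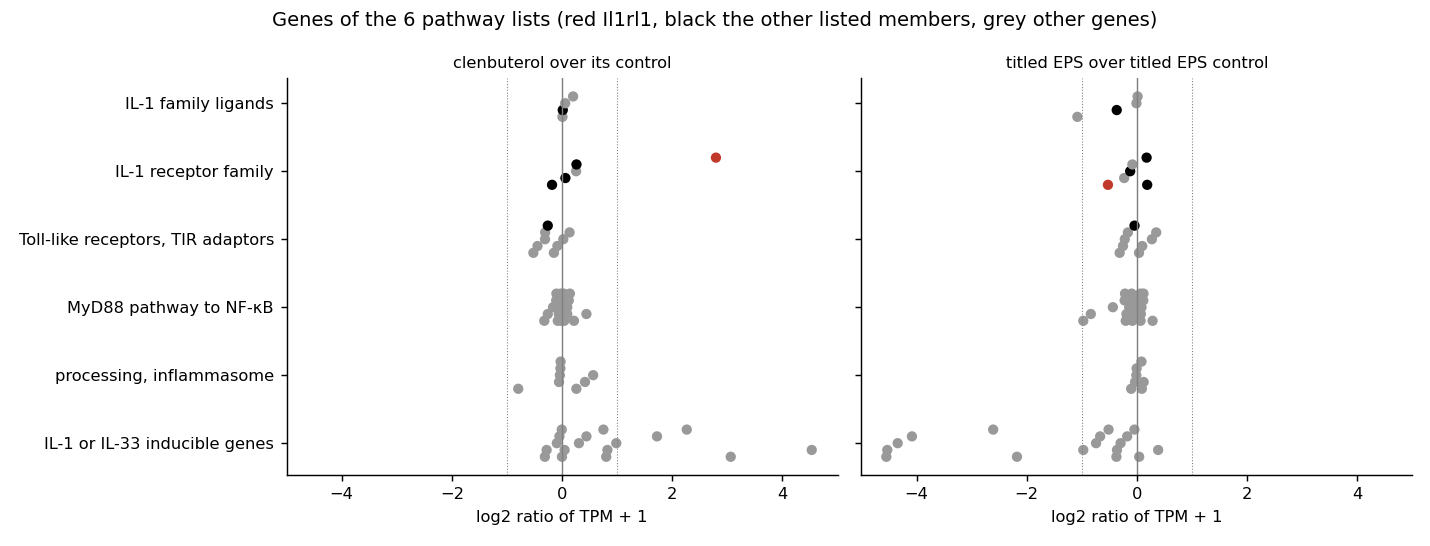
Log2 ratio of TPM plus 1 for each measured gene of the 6 pathway lists in both pairs; red is Il1rl1, black the other members, grey the remaining genes, and dotted lines mark 2-fold. With clenbuterol Il1rl1 lies at 2.79 while the 22 genes of the MyD88 path all lie between −0.32 and 0.44.

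The genes whose profile over the 4 libraries was most like that of Il1rl1 were Pde4b, Per1, H2aw, Vdr and Ptgs2, in that order. Likeness was the distance between log2 profiles of TPM plus 1, each centred on its mean, over the 10378 named genes that reached 5 TPM in 1 library or more. The distances were 0.35, 0.47, 0.54, 0.69 and 0.88. Pde4b encodes a phosphodiesterase that degrades cyclic AMP, and its TPM was 23.6 with clenbuterol, 3.19 in the control, 4.72 under the EPS title and 8.85 in its control. Like Il1rl1, it was highest with clenbuterol, lowest in the clenbuterol control, and higher in the library titled EPS control than in the one titled EPS. Vdr, the vitamin D receptor gene, had a TPM of 84.6, 22.5, 26.8 and 35.1 in the same order of libraries. The clock gene Per1 stood at 72.5 with clenbuterol and at 14.2 to 21.1 elsewhere. H2aw, a histone gene, rested on 41 counts with clenbuterol and 4 to 14 in the others. Profiles built from CPM gave 4 of the same 5 genes, with Areg, the amphiregulin gene, in place of H2aw. A profile of 4 single libraries is a short one, and likeness in it is a description.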

How the data were processed

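The authors deposited estimated counts, FPKM and TPM per gene for 4 libraries in 1 table, and FPKM and TPM again in a table per library. Reads were aligned with HISAT2 to mm10, per the submitters' processing notes; which counter, annotation release and strand setting followed is not given in the sources used here. Joint and single tables differed by more than 0.001 TPM for 1 to 3 genes per library. Dates in place of 26 symbols were restored by gene ID from RefSeq (GRCm38.p6).

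Libraries of a pair were compared by log2 of TPM plus a pseudocount of 1, which shrinks ratios of low genes. A gene was tested if either library of the pair reached 1 TPM. CPM used TMM factors (edgeR 4.0.16, R 4.3.3). Fold intervals are exact Clopper-Pearson intervals on the counts at 95%, level intervals are exact Poisson, and an undetected gene is given a limit of 3 counts. If mates of a read pair were counted separately, these are too narrow. They cover counting error only, and the interval code was tested on simulated data. Each group holds 1 library, so conditions could not be tested against each other.

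The members, the 6 pathway lists, the 7 marker lists and the tests were chosen with earlier results of these data known. Named genes are all members, up to 3 genes at each end of a list, and the 5 profiles most like Il1rl1; others were named after their values were seen. Alternatives were pseudocounts of 0.1 and 5, no filter, FPKM, CPM under 3 scalings (TMM, DESeq2 1.42.0 size factors, library totals), a 1.5-fold threshold and EPS groups by data name. Python 3.11.15, numpy 2.4.6, pandas 2.3.3, scipy 1.17.1 and matplotlib 3.10.9 were used.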

Additional observations from a re-analysis of the deposited data

How the results depend on the processing

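The number of members past 2-fold was 1 with clenbuterol and 0 in the EPS pair under every alternative run, the 1.5-fold threshold included. That threshold was run in TPM plus 1 only, where Il1rl1 in the EPS pair fell short of it at log2 −0.53. At a pseudocount of 0.1 Il1rl1 was past 1.5-fold, at −0.79, and in CPM without a pseudocount it was 1.70-fold lower by title. The numbers of listed pathway genes past 2-fold, 5 with clenbuterol and 7 in the EPS pair, were the same without a filter and in CPM. The 5 were the same genes in CPM, but only 6 of the 7 were shared: Il1b dropped out, at 1.99-fold lower in CPM plus 1, and Ikbkg came in, at 2.08-fold lower. Of 78 recomputed member ratios, 71 stayed within the counting interval of the main value and 7 did not. Of the 7, 3 were the log2 ratio of Il1rl1 with clenbuterol, 2.79 in TPM, which was 3.80 at a pseudocount of 0.1, 1.45 at a pseudocount of 5 and 2.04 in FPKM; a larger pseudocount, or a unit with smaller values, shrinks it by construction. The remaining 4 were EPS ratios with groups taken by data name, where every sign turns round (Il1rl1 from −0.53 to 0.53). Ratios near 0 can change sign with the scaling: Myd88 in the EPS pair was −0.04 in TPM, 0.01 in FPKM and 0.01 in CPM by library total. No paired analysis was possible because each group holds 1 library. Sigirr, at 34 to 55 counts, was limited most by depth.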

Other observations

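Most Toll-like receptors share the adaptor MyD88 with the interleukin-1 receptor family, and 9 of 19 listed receptor and adaptor genes were measured. None reached 1.5-fold in TPM plus 1 in either pair. With clenbuterol their median log2 ratio was −0.26. The lowest were Tirap (−0.52), which encodes a bridge between receptors and MyD88, Ly96 (−0.45), the MD-2 gene, and Tlr4 (−0.31). The highest were Cd14 (0.14), Tlr6 (0.02) and Tlr2 (−0.09). Tirap was 1.49-fold lower with clenbuterol in CPM (1.31 to 1.71), at a TPM of 5.22 against 7.92, and at 9.20 under the EPS title and 8.94 in its control. Clenbuterol was thus the lowest library for this gene. In the EPS pair the list's median was −0.04, from Cd14 (0.35) to Tlr6 (−0.31).

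Among genes that process cytokines of the family, Casp1 (log2 0.42 with clenbuterol) and Casp4 (−0.03) were present, while Nlrp3 had 0 counts in all libraries and Pycard, the inflammasome adaptor gene, had 3 counts in 1. Aim2, a sensor of cytosolic DNA, was 1.79-fold lower with clenbuterol in CPM (1.33 to 2.43), at a TPM of 1.23 against 2.86, and at 2.99 under the EPS title and 3.29 in its control. It was the 1 gene of 8 measured past 1.5-fold there, beside 1.92% of all genes 1.5-fold lower, and 0 of 7 were past it in the EPS pair. Cma1, a mast cell chymase gene, was the highest of the list at log2 0.56 with clenbuterol, on 17 counts against 7. It passed the filter through the clenbuterol library alone, at TPM 0.396 in its control. Its fold in CPM was 2.50 (0.985 to 7.13), an interval that holds 1.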
